A study of Saccharomyces cerevisiae with 4 samples.

Results

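Ergosterol is the main sterol of yeast membranes, and the genes of its synthesis and control were examined here in budding yeast (Saccharomyces cerevisiae) in which a noncoding RNA at the GAL locus was inhibited. The set holds 30 of the 7126 rows of the expression table. It was chosen by systematic name and covers the ERG genes, HMG1, HMG2, MVD1, IDI1, the electron donor genes NCP1 and CYB5, the regulators UPC2 and ECM22, and ARE1, ARE2 and HES1 of sterol esterification and transfer. All 30 had reads in every library and passed the filter on low values. The strain was BY4741, a laboratory haploid of the a mating type that lacks HIS3, LEU2, MET17 (also called MET15) and URA3. Both groups carried CRISPR interference, in which a Cas9 protein without cutting activity blocks transcription where its guide RNA binds. In the scrambled group (2 libraries, A and B) the guide was scrambled. In the +116 group (2 libraries, A and B) the guide was the one named +116, directed at the GAL10 noncoding RNA. All cultures grew to mid-log phase on glucose in synthetic medium without leucine or uracil. Whether A and B were separate cultures is not said, so p-values measure the spread between these libraries only, which may be technical.

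As background, the pathway starts from acetyl-CoA and runs through mevalonate to farnesyl diphosphate, which also feeds heme A, dolichol, ubiquinone and protein prenylation. A pair of farnesyl diphosphates is joined to squalene, squalene is oxidized and closed to lanosterol, and lanosterol is demethylated, reduced and desaturated to ergosterol. Several late steps need oxygen, heme and electrons from NADPH. When sterols run low, the zinc cluster factors Upc2 and Ecm22 activate ERG genes through the sterol response element, whose core letters are TCGTATA.

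The libraries held 34215480 to 40628383 reads assigned to genes, and 6277 genes had a mean of at least 5 normalized reads and were tested. At the targeted locus, GAL1 had 410.6 and 468.9 normalized reads in scrambled A and B and 133.0 and 115.7 in +116 A and B (limma adjusted p = 3.7e-06). GAL10 had 95 and 112.9 against 192.0 and 171.0 (limma adjusted p = 0.0403), and GAL7 had a log2 fold of 0.05. With a trend on gene length removed from each library the GAL10 fold was 0.75 and no longer called (limma adjusted p = 0.258), and that of GAL1 was called (limma adjusted p = 0.0063). Neither GAL1 nor GAL10 was called without scrambled A or without scrambled B. GAL10 was also not called without a variance trend, where no gene was called higher. The 6 a-specific marker genes summed to 82631 to 85436 normalized reads per library and the 4 alpha-specific genes to 1719 to 1988, with none of the 10 at 0. MET17 was at 0 in all 4 libraries.

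The core of the sterol response element was looked for first, because it is the letter sequence that joins the 2 regulators of the set to their targets. The 500 bases before each start codon were searched on both strands for TCGTATA in the R64 reference genome of RefSeq, by that assembly's own gene positions, since the build used by the authors is not given in the sources used here. Of the 30 genes, 9 (30%) held the letters, at 12 places, and 419 of 6013 coding genes in all (6.97%) held them. No place lay in another coding sequence. A match of letters is not in itself a binding site. The 12 places are shown 5′ to 3′ on the strand that carries the motif, in R64 positions, with TCGTATA in capitals and 9 bases on either side.
ERG13, chrXIII:20621-20645, + strand: tcaacacacTCGTATAattaatagc
ERG13, chrXIII:20734-20758, - strand: gaataagctTCGTATAtacaataga
ERG8, chrXIII:712155-712179, - strand: ttttagatcTCGTATAgaaaaacgc
ERG1, chrVII:848790-848814, - strand: agcgggcctTCGTATAgctcggccg
ERG25, chrVII:610092-610116, + strand: acacagagaTCGTATAcggtaaacg
ERG25, chrVII:610072-610096, + strand: tgcctccctTCGTATAcgggacaca
ERG28, chrV:238279-238303, + strand: taattcagtTCGTATAagattaggt
ERG6, chrXIII:253407-253431, - strand: ccccgatctTCGTATAtggtacctc
ERG2, chrXIII:667343-667367, + strand: ccacggcccTCGTATAagccgcaag
ERG3, chrXII:253566-253590, + strand: aattcaggcTCGTATAagtggcaca
ERG3, chrXII:253526-253550, - strand: ccatcggccTCGTATAcaccccggt
CYB5, chrXIV:417562-417586, + strand: atctcgatcTCGTATAgctttcttt
The nearest of these to a start codon lay 95 bases before that of ERG13, and the farthest 477 bases before that of ERG25.

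No sterol gene differed between the guides past the threshold. Of the 30 genes, 0 were called higher and 0 lower with the +116 guide (limma, adjusted p of 0.05 over all genes), against 0.51% of tested genes called higher, 0.335% called lower and 0.844% called in all. The log2 folds of +116 over scrambled, taken on log2(value + 1), ranged from -0.20 in ERG28 to 0.17 in ARE1, with 14 above 0 and 16 below; with upper-quartile scaling ERG10 and ARE2, both near 0, lay below 0 as well. Their median was -0.0098, and that of all tested genes was 0.0013. An unadjusted limma p under 0.05 was found for 6 of the 30 (20%), against 21.8% of all tested genes. These 6 were ARE1, ERG28, CYB5, HMG1, UPC2 and ECM22. In RNA of a whole culture, a difference in some cells and a smaller one in all cells cannot be told apart. The values of the groups did not overlap in 18 of the 30 (60%), against 53.5% of tested genes. With edgeR 0 of the 30 were called as well. With DESeq2 0 were called, but ERG28, UPC2, ECM22 and HES1 had no adjusted p and could not be. Over all tested genes edgeR called 106 higher and 60 lower, and DESeq2 called 100 and 80. An unadjusted p under 0.05 was found for 6 of the 30 in edgeR and 2 in DESeq2, a count not made over all genes. In limma with robust empirical Bayes ARE1 was called higher (adjusted p = 0.0462), under which 3.9% of tested genes were called higher.

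The intervals of these differences were narrow, given the spread between these libraries. Limma drew each variance toward a trend over all tested genes (11.5 prior degrees of freedom), so the widths do not rest on each gene's own libraries alone. The 95% limma interval lay inside a 1.5-fold change in either direction for all 30 genes. The widest was that of HES1, the lowest gene of the set, which reached a 1.36-fold difference, and among the other 29 none reached beyond the 1.27-fold of ERG28. The median SD within a group was 0.0420 on the log2 scale over the 30 genes and 0.0575 over all tested genes. In 17 of the 30 the guide difference was larger than the difference between A and B in either group. The same count was not made over all tested genes, so it shows nothing particular to the set.

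**Figure D1:**
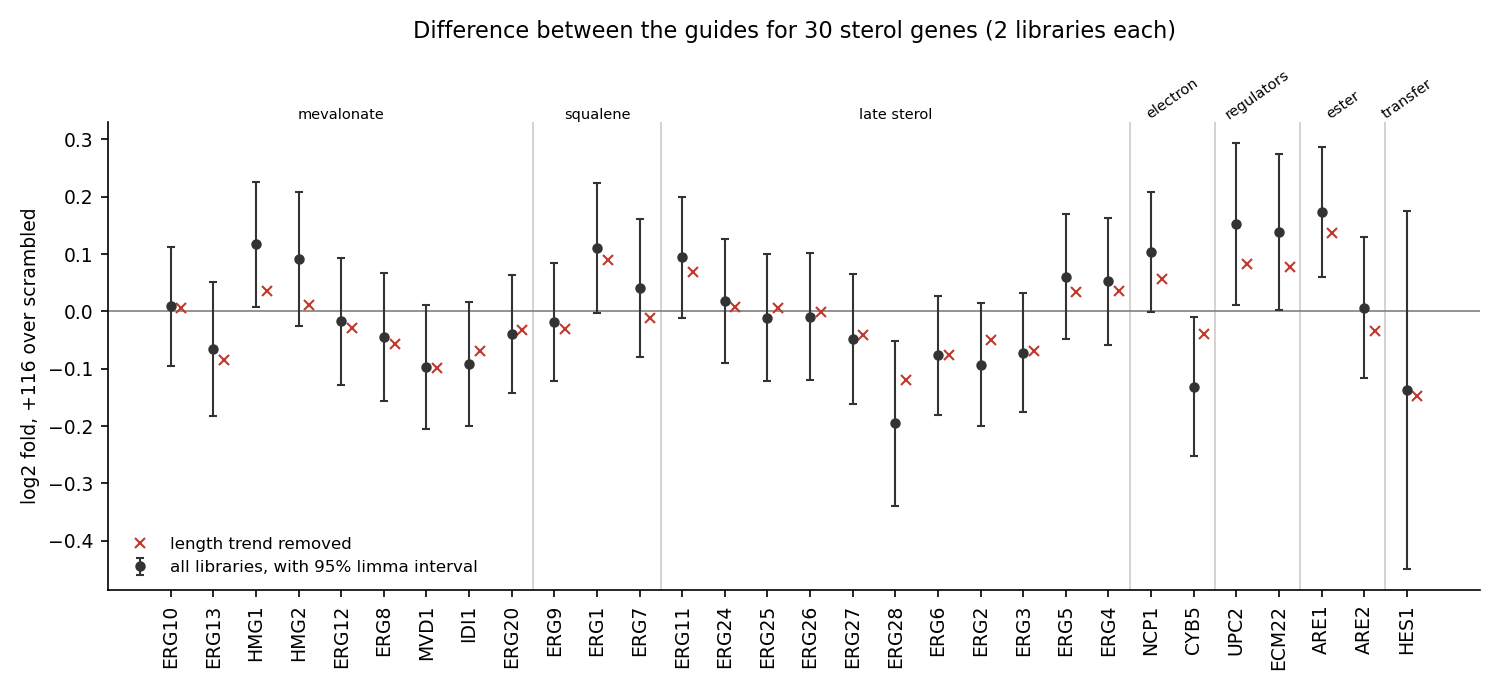
Log2 fold of +116 over scrambled for each of the 30 genes in pathway order (points, with 95% limma intervals, 2 libraries per group), and the same fold after a trend with gene length was removed from each library (crosses). The points lie between -0.20 and 0.17, and the widest interval is that of HES1.

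The levels of the transcripts spanned a wide range that differed little between libraries. Per kilobase of coding sequence and averaged over the 4 libraries, ERG20 was highest, at 14345 ± 250.4 normalized reads per kb (SD, n = 4), and HES1 lowest, at 123 ± 14.9, a ratio of 116. None of the 30 has an intron. Together they took 0.595% to 0.602% of the reads of each library. In the order of levels, ERG20, ERG3, ERG2, ERG25, ERG6 and ERG10 followed one another at the top, each with a range over the 4 libraries that overlapped that of the next. ERG11, ERG4, ERG13, ERG1 and IDI1 formed a second run of overlapping neighbours, from 10787 down to 9197 normalized reads per kb. Of the 29 neighbouring pairs in the whole order, 15 overlapped. The 7 lowest genes were ARE1, HMG1, ARE2, HMG2, ECM22, UPC2 and HES1, and no neighbouring pair among them overlapped.

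**Figure D2:**
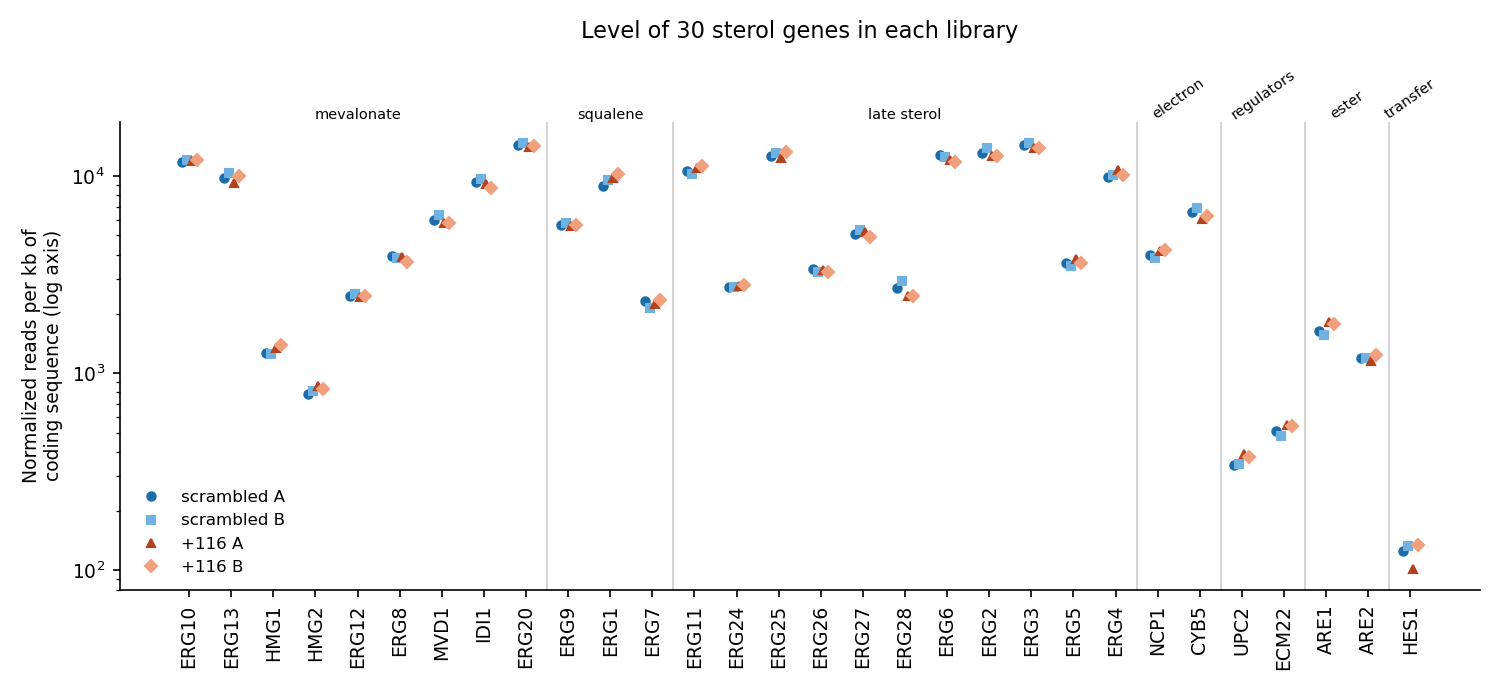
Normalized reads per kb of coding sequence (log axis) of the 30 genes in pathway order, 1 symbol per library. HMG1 and HMG2 lie below the other genes of mevalonate and isoprenoid synthesis in all 4 libraries, and UPC2, ECM22 and HES1 are the lowest genes of the set.

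In the mevalonate part of the pathway 9 genes were tested, 0 were called, and the folds of 3 lay above 0 and of 6 below (median -0.039). ERG10 (YPL028W), which encodes the acetoacetyl-CoA thiolase of the first step, had 14051 and 14407 normalized reads in scrambled A and B and 14207 and 14422 in +116 A and B, a log2 fold of 0.0087 with a 95% interval from -0.10 to 0.11. The groups overlapped. HMG1 (YML075C) and HMG2 (YLR450W) encode the isozymes of HMG-CoA reductase, the rate-limiting step. HMG1 had 3998 and 3964 normalized reads with the scrambled guide and 4236 and 4400.05 with +116, so both +116 libraries were above both scrambled ones, at a log2 fold of 0.12 (SE 0.0505, limma adjusted p = 0.202). HMG2 had 2462 and 2551 against 2719.7 and 2621, a log2 fold of 0.09 (SE 0.0545, limma adjusted p = 0.349), again without overlap. Both are long genes, of 3165 and 3138 bp, and with the length trend removed their folds were 0.04 and 0.011. HMG1 stood 1.61 and 1.54 times above HMG2 per kb in scrambled A and B and 1.54 and 1.66 times in +116 A and B, so the ratio of the isozymes overlapped between the guides (two-sided exact permutation p = 0.667, where 0.333 is the smallest p that 2 against 2 libraries allow).

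The other genes of this stretch lay closer to 0 or slightly below. ERG13 (YML126C), the HMG-CoA synthase gene with a pair of TCGTATA places, had 14469 and 15298 normalized reads with the scrambled guide and 13695 and 14759 with +116, with overlap (log2 fold -0.07). ERG12 (YMR208W) and ERG8 (YMR220W), which encode the mevalonate and phosphomevalonate kinases, had log2 folds of -0.02 and -0.04. MVD1 (YNR043W), the gene of mevalonate diphosphate decarboxylase, had 7152 and 7578 against 6856 and 6912 normalized reads, all +116 values being lower, at a log2 fold of -0.10 (SE 0.0502, limma adjusted p = 0.282). IDI1 (YPL117C), the isopentenyl diphosphate isomerase gene, had 8114 and 8339 against 7923 and 7518.8 normalized reads, also without overlap (log2 fold -0.09, SE 0.0501, limma adjusted p = 0.302). ERG20 (YJL167W), which encodes farnesyl diphosphate synthase, had 15286 and 15510.4 against 14899 and 15071 normalized reads, a log2 fold of -0.04 with an interval from -0.14 to 0.06.

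From squalene to lanosterol 3 genes were tested and 0 called. ERG9 (YHR190W), the squalene synthase gene, had 7532 and 7701.5 normalized reads with the scrambled guide and 7480.3 and 7562 with +116, with overlap (log2 fold -0.02). ERG1 (YGR175C) encodes squalene epoxidase, an oxygen-requiring enzyme and the target of terbinafine. It had 13309 and 14230 normalized reads against 14523 and 15197, higher in both +116 libraries, at a log2 fold of 0.11 (SE 0.0525, limma adjusted p = 0.240). The A and B libraries of each group differed by 0.10 and 0.07 on the log2 scale in this gene. ERG7 (YHR072W), the lanosterol synthase gene, had a log2 fold of 0.04, and its scrambled libraries, at 5122 and 4694 normalized reads, enclosed +116 A at 4915.

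From lanosterol to ergosterol 11 genes were tested, 0 were called, and 4 folds lay above 0 and 7 below (median -0.011). ERG11 (YHR007C), which encodes the lanosterol demethylase that azole drugs inhibit, had 16844 and 16404 normalized reads with the scrambled guide and 17457 and 18031 with +116. Both +116 values were higher, at a log2 fold of 0.09 (SE 0.0493, limma adjusted p = 0.287). ERG24 (YNL280C), the sterol C-14 reductase gene, had 3615 and 3619 against 3643 and 3682 normalized reads, a log2 fold of 0.02. The genes of the C-4 demethylation complex, ERG25 (YGR060W, the oxidase), ERG26 (YGL001C, the dehydrogenase) and ERG27 (YLR100W, the ketoreductase), had log2 folds of -0.011, -0.0089 and -0.05, each with overlapping groups. ERG28 (YER044C), which encodes the membrane anchor of that complex, had 1208 and 1319 normalized reads with the scrambled guide and 1108 and 1097 with +116. This was the lowest fold of the set, at -0.20 (SE 0.0670, limma adjusted p = 0.131), or 1.14-fold lower, and its scrambled libraries differed from each other by 0.13 on the log2 scale. At 447 bp it is also one of the shortest genes of the set, and with the length trend removed its fold was -0.12.

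The last enzymes divided by direction without any being called. ERG6 (YML008C), the sterol C-24 methyltransferase gene, had 14695 and 14341 normalized reads against 13903 and 13636 (log2 fold -0.08). ERG2 (YMR202W), the sterol C-8 isomerase gene, had 8767 and 9309.95 against 8471 and 8473 (log2 fold -0.09, SE 0.0501, limma adjusted p = 0.298), and -0.05 with the length trend removed. ERG3 (YLR056W), the C-5 desaturase gene, had 15800.3 and 16189 against 15160.5 and 15259 (log2 fold -0.07). In these 3 genes both +116 values were below both scrambled ones. ERG5 (YMR015C), which encodes the cytochrome P450 of C-22 desaturation, and ERG4 (YGL012W), the gene of the final C-24(28) reductase, had log2 folds of 0.06 and 0.05, and the groups overlapped in ERG4.

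The electron donor genes had opposite signs. NCP1 (YHR042W), which encodes the NADPH-cytochrome P450 reductase that serves Erg11 and Erg5, had 8271 and 7969.9 normalized reads with the scrambled guide and 8662 and 8778 with +116, a log2 fold of 0.10 (SE 0.0485, limma adjusted p = 0.236). CYB5 (YNL111C), the cytochrome b5 gene, had 2387 and 2505 against 2189.8 and 2275, a log2 fold of -0.13 (SE 0.0562, limma adjusted p = 0.198). The groups did not overlap in either gene. CYB5 is the shortest gene of the set, at 363 bp, and NCP1 has 2076 bp. With the length trend removed the folds were -0.04 for CYB5 and 0.06 for NCP1.

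Both regulator genes had slightly higher values with +116. UPC2 (YDR213W) had 940.6 and 952.1 normalized reads in the scrambled libraries and 1067 and 1037 in the +116 libraries, a log2 fold of 0.15 with an interval from 0.011 to 0.29 (SE 0.0658, limma adjusted p = 0.202). ECM22 (YLR228C) had 1244 and 1177 against 1342 and 1322, a log2 fold of 0.14 with an interval from 0.0018 to 0.27 (SE 0.0633, limma adjusted p = 0.224). In both genes all +116 values were above all scrambled ones, and neither passed the threshold. Per kb ECM22 stood 1.43 ± 0.0691 times above UPC2 with the scrambled guide and 1.42 ± 0.0133 times with +116 (SD, n = 2, two-sided exact permutation p = 1). The smallest p of that permutation test with 2 against 2 libraries is 0.333, so it cannot decide whether the ratio changed. UPC2 and ECM22 are long genes, of 2742 and 2445 bp, and with the length trend removed the folds were 0.08 and 0.08.

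The genes with TCGTATA before the start codon had small folds, mostly below 0. Of these 9, 8 had a fold below 0 and 1, ERG1, above 0, with a median of -0.07. Of the 21 genes without the letters 8 lay below 0 and 13 above, with a median of 0.02. The genes with the letters were shorter, at a median of 1098 bp against 1422 bp. The longest of the 9, ERG1, has 1491 bp. All 10 genes longer than 1500 bp, each with a fold above 0, were thus among the 21 without the letters. The 8 without the letters that lay below 0 were all shorter than that, so these counts do not separate the letters from gene length. With the length trend removed the median of the 9 was -0.06, with 7 below 0. That of the 21 was 0.0056, with 10 below 0. None of either set was called. Over all tested coding genes the median was 0.02 for the 406 with the letters and 0.0021 for the 5394 without. Of the 406, 225 lay above 0 and 181 below, and of the 5394, 2735 lay above and 2659 below. Neither of these sets lay mostly below 0, as the 9 sterol genes did. With the length trend removed the medians over all tested coding genes were 0.0071 with the letters and -0.0044 without. Then 186 of the 406 and 2815 of the 5394 lay below 0. These medians are descriptions, and no test was made of the difference.

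The isozyme genes of sterol esterification had log2 folds of 0.17 and 0.0067, with overlapping intervals. ARE1 (YCR048W) and ARE2 (YNR019W) encode the acyl-CoA:sterol acyltransferases, which store sterols as esters in lipid droplets. ARE1 had 2992 and 2868 normalized reads with the scrambled guide and 3343 and 3265 with +116, so both +116 values were higher. Its 1.13-fold difference (SE 0.0528 on the log2 scale, limma adjusted p = 0.103) was the highest of the set and had its lowest p, with a 95% interval of the log2 fold from 0.06 to 0.29. ARE2 had 2299 and 2293 against 2228 and 2389 normalized reads, with overlap, a log2 fold of 0.0067 and an interval from -0.12 to 0.13. Per kb ARE1 stood 1.37 and 1.32 times above ARE2 in scrambled A and B and 1.58 and 1.44 times in +116 A and B. The ratio thus did not overlap between the guides, and its two-sided exact permutation p of 0.333 is the smallest that 2 against 2 libraries allow. In R64 the end of ARE1 overlaps by 298 bp the reading frame YCR050C on the other strand, which had 1.81 and 1.10 normalized reads in scrambled A and B, 1.0 in +116 A and 0 in +116 B.

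HES1 (YOR237W), which encodes an oxysterol-binding protein homolog, was the lowest gene of the set and had the largest SE. It had 163 and 173 normalized reads in scrambled A and B, 133 in +116 A and 175 in +116 B, a log2 fold of -0.14 (SE 0.145, limma adjusted p = 0.611). The +116 libraries differed from each other by 0.39 on the log2 scale and enclosed both scrambled values.

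Among the sterol genes the sign of the difference between the guides went with gene length. All 10 genes longer than 1500 bp had a fold above 0, with a median of 0.10, and of the 20 shorter ones 16 lay below 0, with a median of -0.05. The border of 1500 bp was chosen after the values were seen. Over all genes on the same sides of that border the medians were 0.07 and -0.05. Across the 30 genes the fold and the coding length had a Spearman rho of 0.811, and across 5806 tested genes with a length it was 0.560. The median SD within a group was 0.0420 in the set and 0.0575 over all tested genes, so these rho values cannot be compared directly. The points share 4 libraries and genes are not independent replicates, so these are descriptions. Over all genes the slope of the fold was 0.0553 per doubling of length. Within the groups, B minus A had a slope of -0.0269 for the scrambled guide and 0.0304 for +116. After a linear trend on log2 length was removed from each library, 0 of the 30 were called, and the folds ranged from -0.15 to 0.14. Their rho was then 0.640, a value not computed over all genes. The medians of the longer and shorter genes were then 0.05 and -0.04. The signs of ERG7, ERG25 and ARE2, all near 0, turned.

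**Figure D3:**
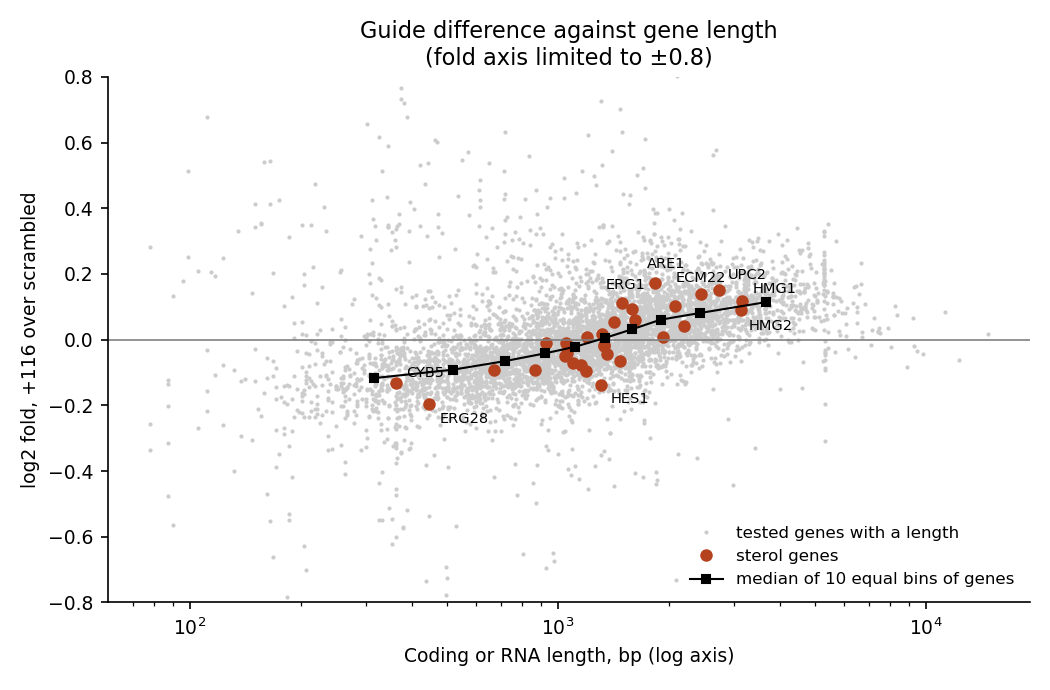
Log2 fold of +116 over scrambled against coding or RNA length (log axis) for the 30 sterol genes (large points) and all tested genes with a length (small points), with the median of 10 bins of about equal numbers of genes (squares). The bin medians go from -0.12 at a median length of 316.5 bp to 0.11 at 3676.5 bp, and 23 genes lie outside the fold axis.

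The libraries differed little in the median of the set and more in the count of genes they were highest or lowest for. The median deviation of the 30 genes from their own mean over the 4 libraries was -0.0072 in scrambled A, 0.0084 in scrambled B, -0.0073 in +116 A and 0.0070 in +116 B on the log2 scale. Scrambled A and B were the highest library for 3 and 11 genes and +116 A and B for 6 and 10. They were the lowest for 6 and 8 and for 11 and 5. These counts were not made over all tested genes, so they show nothing particular to the set.

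**Figure D4:**
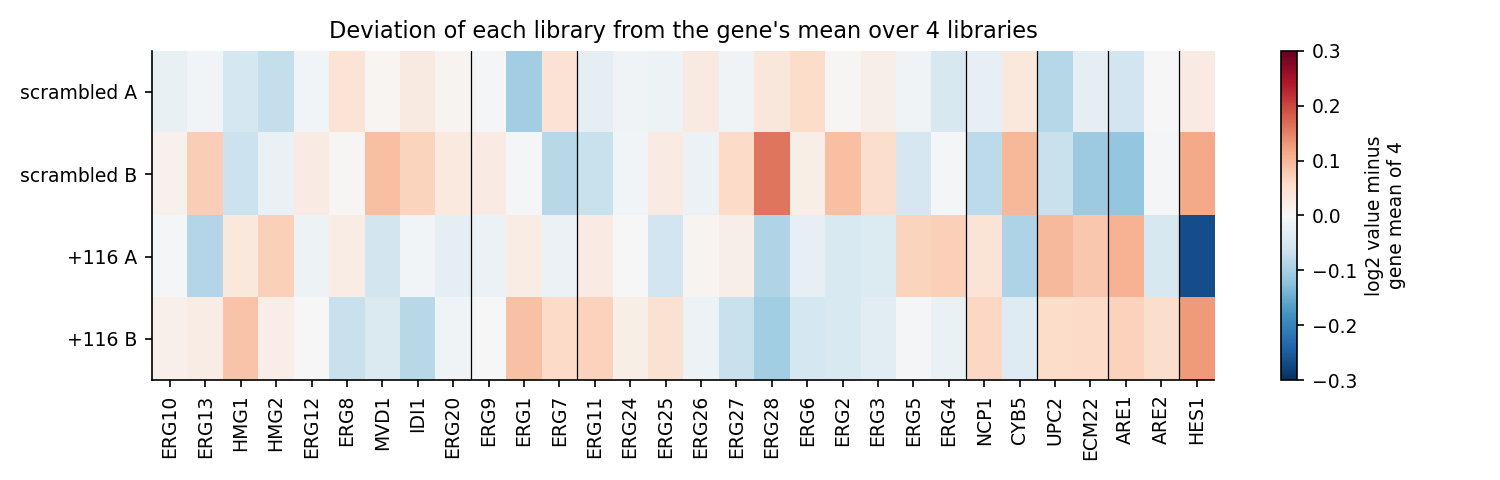
Log2 value of each of the 30 genes in each library minus the gene's mean over the 4 libraries, in pathway order, with red above and blue below the mean. UPC2, ECM22 and ARE1 are above their mean in both +116 libraries, ERG28 is highest in scrambled B, and HES1 is lowest in +116 A.

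Genes around the pathway were read from 6 further lists with 52 tested genes, of which 0 were called higher and 0 lower, against the 0.844% called of all tested genes. The list of sterol transport proteins, which move sterols between membranes, had 13 of 14 folds above 0 and a median of 0.13, or 0.07 with the length trend removed. Its genes had a median length of 3252 bp. YSP2, which encodes a sterol transfer protein at contacts of the endoplasmic reticulum and plasma membrane, had the lowest p of the lists, with 3353 and 3189.5 normalized reads against 3821 and 3819, a log2 fold of 0.22 (SE 0.0521, limma adjusted p = 0.0549). With the length trend removed its fold was 0.12 (limma adjusted p = 0.358). SWH1, an oxysterol-binding protein homolog gene also known as OSH1, was at 0.23 on the log2 scale (limma adjusted p = 0.0653) and at 0.14 with the length trend removed (limma adjusted p = 0.316).

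The other lists lay nearer 0. The 8 genes of sterol uptake and hypoxic control had a median fold of -0.014. HAP1, a heme-responsive activator gene that is disrupted at its end by a Ty1 element in strains of this background, had the lowest p of that list (limma adjusted p = 0.158), at 0.15 on the log2 scale. Its length is 4509 bp, and with the length trend removed it was at 0.04. The 5 genes of ester hydrolysis and acetylation had a median of 0.02, with the steryl ester hydrolase gene TGL1 at 0.14 (limma adjusted p = 0.162). The 10 genes of enzyme turnover and partner proteins had a median of -0.05, with SSM4, the gene of the Doa10 ubiquitin ligase that degrades squalene epoxidase, at 0.15 (limma adjusted p = 0.146), or 0.05 with the length trend removed. The 7 genes of other uses of farnesyl diphosphate had a median of -0.013, and RER2, a dolichol synthesis gene, had -0.11 (limma adjusted p = 0.267). The 8 heme synthesis genes had a median of -0.03, and HEM4, the uroporphyrinogen III synthase gene, had -0.13 (limma adjusted p = 0.286).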

How the data were processed

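Poly(A) RNA was sequenced from stranded libraries. The authors deposited 1 table of normalized read counts, a signal that is never negative: counts per gene divided by 1 size factor per library. Per the submitters' processing notes, bcl2fastq 1.8.4, Trimmomatic 0.30, TopHat2 2.0.8, Bowtie2, Picard 1.84 and DESeq2 were used, named without roles; the sources used here do not give the build, annotation, read counter or strand setting. Every value was a whole multiple of 1 step per library (100% within 1e-06 of a read), which gave back the reads. The table's 4 columns were all used.

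Genes with a mean of at least 5 entered a limma 3.58.1 (R 4.3.3) fit with a variance trend on log2(value + 1), two-sided, with Benjamini-Hochberg adjustment over all 6277 genes and a threshold of 0.05. edgeR 4.0.16 and DESeq2 1.42.0 on the recovered reads and 14 other settings were alternatives. The test was tried on simulated data. Names, lengths and sequence came from RefSeq R64, matched by locus tag for 6048 of 7126 rows. No motif or list was tested. All members are named, and of the other lists those called or with the lowest p; SWH1 was added after its value was seen. Members and lists were chosen with earlier results of these data known. The letters A and B gave no sign of pairing (correlation of deviations -0.041).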

Additional observations from a re-analysis of the deposited data

How the results depend on the processing

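The count of called sterol genes stayed at 0 higher and 0 lower in 15 of the 16 alternatives, the exception being robust empirical Bayes, with 1 higher (ARE1) and 0 lower. The median log2 fold of the 30 genes, -0.0098, was -0.027 with upper-quartile scaling and ranged from -0.0173 to 0.0129 when 1 library was left out, with the sign turned without +116 A. DESeq2 gave no adjusted p for 4 of the 30. The counts over all genes, 32 higher and 21 lower, moved more. They were 2 and 5 with no filter on low values, 82 and 55 with a mean of at least 50, 73 and 76 with upper-quartile scaling, and 51 and 37 with TMM scaling. They were 0 and 1 without a variance trend, 106 and 60 in edgeR, 245 and 165 under robust empirical Bayes, 0 and 1 with the length trend removed, and 100 and 80 in DESeq2. With a replicate block on the letters A and B they were 170 and 88. They ranged from 0 to 207 and from 0 to 104 when 1 library was left out, and both counts were 0 when scrambled A or scrambled B was absent. An unadjusted p under 0.05 was then reached by 1341 and 448 genes. Leaving out +116 A gave 132 and 104, and leaving out +116 B gave 207 and 75. The cause was not tested. Of 480 folds of single sterol genes, 14 changed sign, in 6 genes, and none of those was called in any setting. With upper-quartile scaling ERG10 was at -0.0089 and ARE2 at -0.011. With the length trend removed ERG7 was at -0.011, ERG25 at 0.0063 and ARE2 at -0.035. With 1 library left out ERG10 ranged from -0.0093 to 0.027, ERG26 from -0.032 to 0.014, ERG7 from -0.022 to 0.10, ERG25 from -0.062 to 0.040, ARE2 from -0.044 to 0.057 and HES1 from -0.33 to 0.060. Over all settings ARE1 ranged from 0.14 to 0.20 (adjusted p from 0.0462 to 0.661) and ERG28 from -0.26 to -0.12 (0.0632 to 0.661). Of the genes that kept their sign, ERG8 ranged from -0.089 to -0.00011, ERG13 from -0.12 to -0.012, ERG12 from -0.033 to -0.0017, ERG27 from -0.09 to -0.0068 and ERG4 from 0.0063 to 0.10 with 1 library left out. With 2 libraries per group, 6 genes (20%) with intervals that excluded 0 still were not called. Of all tested genes 21.8% had an unadjusted limma p under 0.05, so the share in the set was not above that of all genes.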

Other observations

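DAN1, a cell wall mannoprotein gene of anaerobic growth that was listed here with sterol uptake and hypoxic control, had 66.0 and 61.4 normalized reads in scrambled A and B, 3.0 in +116 A and 72.4 in +116 B. Of 5926 genes with a mean of at least 20, it was the only one with a value in 1 library more than 10 times below the lowest of the other 3. Its limma adjusted p was 0.209, and it was singled out after its values were seen. No other gene of that list had a drop of that size in +116 A. AUS1, a sterol uptake transporter gene, had 1321 and 1320.3 normalized reads in scrambled A and B and 1529.85 and 1432 in +116 A and B. HAP1 was also highest in +116 A, at 6887, and ROX1, a repressor gene of hypoxic genes, was lowest there, at 3404. PDR11, at 670.9, and SUT1, at 1039, were lowest in +116 A as well.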
